A study of Mus musculus with 16 samples.

Results

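Interferon-stimulated genes are genes whose transcripts accumulate when a cell senses interferon or viral nucleic acid. The set described here is a list of 43 such genes, taken by gene symbol and read in every library, and all 43 were found among the 49585 gene identifiers of both count tables. Libraries came from cells labelled as neutrophils, sorted by flow cytometry from the bones of C57BL/6 mice aged 8 to 12 weeks. Neutrophils are short-lived phagocytes made in the bone marrow. The 16 libraries formed 4 groups of 4. P2KO mice were labelled Vav:cre-PHD2f/f: they carry a floxed gene for the oxygen sensor PHD2 (Egln1) and a Cre recombinase driven by Vav, which is active in all blood-forming cells, so that other blood cells of these mice are targeted as well. P2H2KO mice were labelled Vav:cre-PHD2/HIF2ff/ff, with floxed alleles for both PHD2 and the hypoxia-inducible factor HIF2α (Epas1). P2WT and P2H2WT are the wild-type controls of the respective lines, and the labels do not say whether these controls carry Cre or floxed alleles. No group was labelled as given interferon, infected or otherwise treated, so the levels are those of untreated mice as far as the labels say. Separate titles were taken as separate mice. Where they are not, the p values measure only the spread between these samples.

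As background, type I interferons bind the receptor pair IFNAR1 and IFNAR2 and activate the kinases JAK1 and TYK2. These lead to a complex that holds STAT2 and IRF9 and binds a promoter motif, the interferon-stimulated response element (ISRE). Interferon gamma acts through its own receptor and a promoter motif called the gamma-activated site (GAS). The induced proteins sense viral RNA, block its translation, alter membranes and nucleotides that viruses need, or attack the vacuoles of intracellular microbes. Neutrophils also express many of these genes at a resting level.

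Stretches of 60 bases from the promoters of 10 members are shown to let the shared motif be seen next to the expression values that follow. They are from RefSeq promoter windows on build GRCm38.p6, read 5′ to 3′ on the strand of the gene and ending before the RefSeq start, and capitals mark the ISRE letters on either strand. Isg15 and Rsad2 had the highest levels per length, Ifit3 the lowest mean change over both lines, and Gbp3 and Tgtp1 the largest differences between the lines. Ifit1, Oas3, Bst2 and Gbp2 show further spacings and strands, and Tgtp2 the near copy of Tgtp1. The letters of Ifit3b in its stretch are those of Ifit3. The single capital that opens the Ifit3 stretch is the end of a further match.
Ifit1: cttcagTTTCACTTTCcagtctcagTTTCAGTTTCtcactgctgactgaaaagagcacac
Ifit3: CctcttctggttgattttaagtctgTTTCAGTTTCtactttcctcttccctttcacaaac
Isg15: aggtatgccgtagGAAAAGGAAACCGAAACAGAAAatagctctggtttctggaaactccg
Oas3: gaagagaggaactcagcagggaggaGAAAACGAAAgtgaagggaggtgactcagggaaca
Rsad2: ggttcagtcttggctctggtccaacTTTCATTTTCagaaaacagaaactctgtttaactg
Bst2: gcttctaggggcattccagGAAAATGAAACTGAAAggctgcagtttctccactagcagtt
Gbp2: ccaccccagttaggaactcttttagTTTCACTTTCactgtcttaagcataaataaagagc
Gbp3: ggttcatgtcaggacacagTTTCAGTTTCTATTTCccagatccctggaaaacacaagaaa
Tgtp1: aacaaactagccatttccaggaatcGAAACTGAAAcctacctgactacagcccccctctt
Tgtp2: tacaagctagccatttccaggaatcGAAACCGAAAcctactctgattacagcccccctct

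On this build the stretches lie at chr19:34640779-34640838 (plus strand) for Ifit1, chr19:34583382-34583441 (plus strand) for Ifit3, chr4:156200850-156200909 (minus strand) for Isg15, chr5:120777700-120777759 (minus strand) for Oas3, chr12:26456538-26456597 (minus strand) for Rsad2. The others lie at chr8:71537562-71537621 (minus strand) for Bst2, chr3:142620579-142620638 (plus strand) for Gbp2, chr3:142559980-142560039 (plus strand) for Gbp3, chr11:48992289-48992348 (minus strand) for Tgtp1, chr11:49064248-49064307 (minus strand) for Tgtp2.

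RefSeq windows of 300 bases, from 250 bases before the start to 50 after it, were held for 34 members. In 28 of their 38 windows, bases 6 to 25 after the start lay in a GENCODE transcript of the gene. The other windows were kept, and all positions are relative to the RefSeq start. The ISRE letters searched were GAAANNGAAA on either strand (TTTCNNTTTC when read on the strand of the gene), with overlapping matches counted. They were present in 21 of 34 members (61.8%), against 3.99% of the 27025 genes with such windows (3.44% of 32851 windows). Isg15 held 3 overlapping matches, and Ifit1, Ifit3, Ifit3b, Bst2, Gbp3, Irgm1 and Oas1a held 2 each. By the first base of the match nearest the start, the members whose matches lay wholly before it ranged from -14 for Oas1a to -222 for Stat2. Those of Ddx58, Eif2ak2 and Ifih1, and of 1 of the 2 windows of Trim30a, lay after it. The GAS letters TTCNNNGAA, which read the same on both strands and can overlap the ISRE letters, were in 9 of 34 members (26.5%) and in 9.55% of all genes. Bst2, Eif2ak2, Gbp7, Igtp, Oas1a, Tgtp1 and Tgtp2 held both. No window was held for Mx1, Mx2, Oas2, Ifi27l2a, Usp18, Rtp4, Zbp1, Dhx58 or Parp14.

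**Figure D1:**
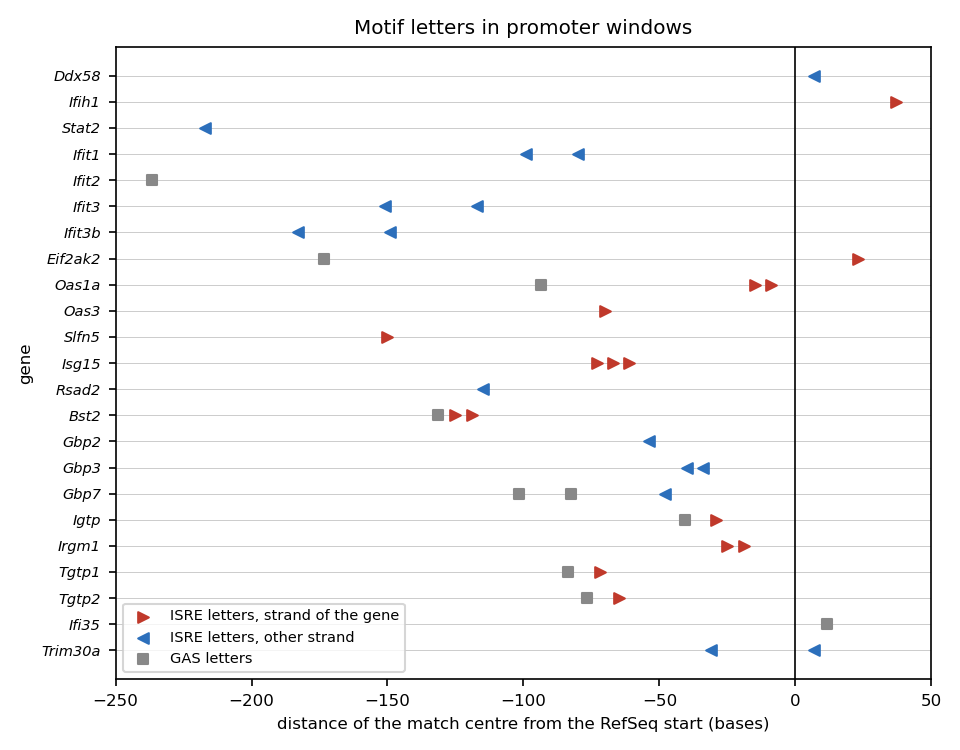
Each row is a member with a match in its RefSeq promoter window, and the x axis is the distance in bases of the centre of a match from the start. Triangles are ISRE letters on the strand of the gene or the other strand, and squares are GAS letters. Isg15 has 3 matches on 1 strand, and Trim30a has a match in each of its 2 windows.

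Total counts ranged from 23450746 to 28601284 per library, and libraries of 1 group differed by more than sampling noise in all 24 pairs. Levels below are CPM, the count of a gene as a share of its library, scaled by TMM. All 13 neutrophil markers and all 6 erythroid markers had counts in every library, with sums of 33039.5 to 86493 and 16435 to 34099.9 CPM. Transcripts of erythroid genes were thus abundant in libraries labelled as sorted neutrophils. The targeted gene Egln1 averaged 49.5 ± 6.40 CPM (mean ± SD of 4) in P2KO, 48.7 ± 2.21 in P2WT, 53.2 ± 4.39 in P2H2KO and 52.2 ± 2.97 in P2H2WT, with two-sided exact permutation p values of 0.857 and 0.771 within the lines. Epas1 averaged 5.65 ± 2.17 CPM in P2H2KO and 3.56 ± 1.02 in P2H2WT (exact permutation p 0.171). Numbers after a group name are the replicate numbers of the titles. In the P2 line Epas1 was at 7.58, 10.4, 6.76 and 24.4 CPM in P2KO 1, 5, 6 and 9. It was at 8.94, 8.70, 11.1 and 11.3 CPM in P2WT 3, 4, 7 and 10 (exact permutation p against P2KO 0.914). Every P2WT library lay above every P2H2WT library, which ran from 2.55 to 4.97 CPM. The cause of this difference between the controls was not tested. The smallest p that 4 against 4 allows is 0.0286. Counts are summed over whole genes, so these genes do not check the deletion, and every direction below rests on the labels.

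The 43 genes together took 0.183% to 0.302% of the counts of a library. By mean CPM over the 16 libraries, 5 members were above 100 CPM, 28 between 10 and 100, 9 between 1 and 10, and Tgtp1 was below 1. Per kilobase of exon the order was led by Rsad2 (level of 122 CPM per kb), which encodes viperin, and Isg15 (111 CPM per kb), a ubiquitin-like modifier. Ifi27l2a (92.8 CPM per kb), Bst2 (55.4) and Cmpk2 (40.2) came next. Rsad2 alone made up 21.95% of the summed CPM of the set. The highest library exceeded the lowest by a median factor of 2.49 over the members. That factor was smallest for Cmpk2 (1.53) and Herc6 (1.56) and largest for Tgtp1 (8.14) and Ifit3b (7.37), both low in counts.

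In the P2KO libraries, 42 of the 43 members had a lower level than in P2WT and Samd9l a higher one, yet none passed the test. EdgeR (quasi-likelihood, Benjamini-Hochberg) called 0 of 43 members at an adjusted p under 0.05, and called 6 of 13734 genes in all (0.0437%). DESeq2 called 1 member, Phf11d, with a log2 fold change of -0.96 and an adjusted p of 0.0366. The median log2 fold change of the members was -0.36, beside 0.02 over all genes tested, of which 42.2% were lower. At an unadjusted p under 0.05, 19 of 43 members were lower and 0 higher, against 2.0% of all genes being lower at that level. That count of members was 10 with the m or f suffix of the titles as a covariate and 10 in a fit of all 16 libraries. With the suffix as a covariate the median of the members was -0.29 in this line and -0.31 in the P2H2 line. For 6 members (Oasl1, Slfn5, Gbp3, Tgtp1, Phf11d and Lgals3bp) every P2KO library lay below every P2WT library, a pattern found in 1.39% of all genes. Slfn5, Gbp3 and Phf11d are named here after their values were seen. Tgtp1 passed the count filter only through P2WT, where it was high, so its separation was partly fixed by that filter.

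The P2H2KO libraries gave the same sign for 38 of 42 members against P2H2WT, with Tgtp1 too low in counts to be tested. The 4 members with a higher level were Samd9l, Gbp2, Gbp3 and Bst2. EdgeR called 0 of 42 members and DESeq2, which had no count filter, 0 of 43. EdgeR called 10 of 13435 genes in all (0.0744%). The median log2 fold change was -0.22, beside 0.0011 over all genes tested, of which 49.45% were lower. Only Usp18 and Lgals3bp were lower at an unadjusted p under 0.05 (2 of 42, with 1.01% of all genes), and 0 of 42 members had all P2H2KO libraries below all P2H2WT libraries (0.811% of all genes). The smallest adjusted p among members was 0.628 in the P2 line, for Phf11d, followed by 0.729 for Tgtp1. It was 1 for every other member there and for all 42 in the P2H2 line, so only unadjusted p values of edgeR are given with single genes below.

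**Figure D2:**
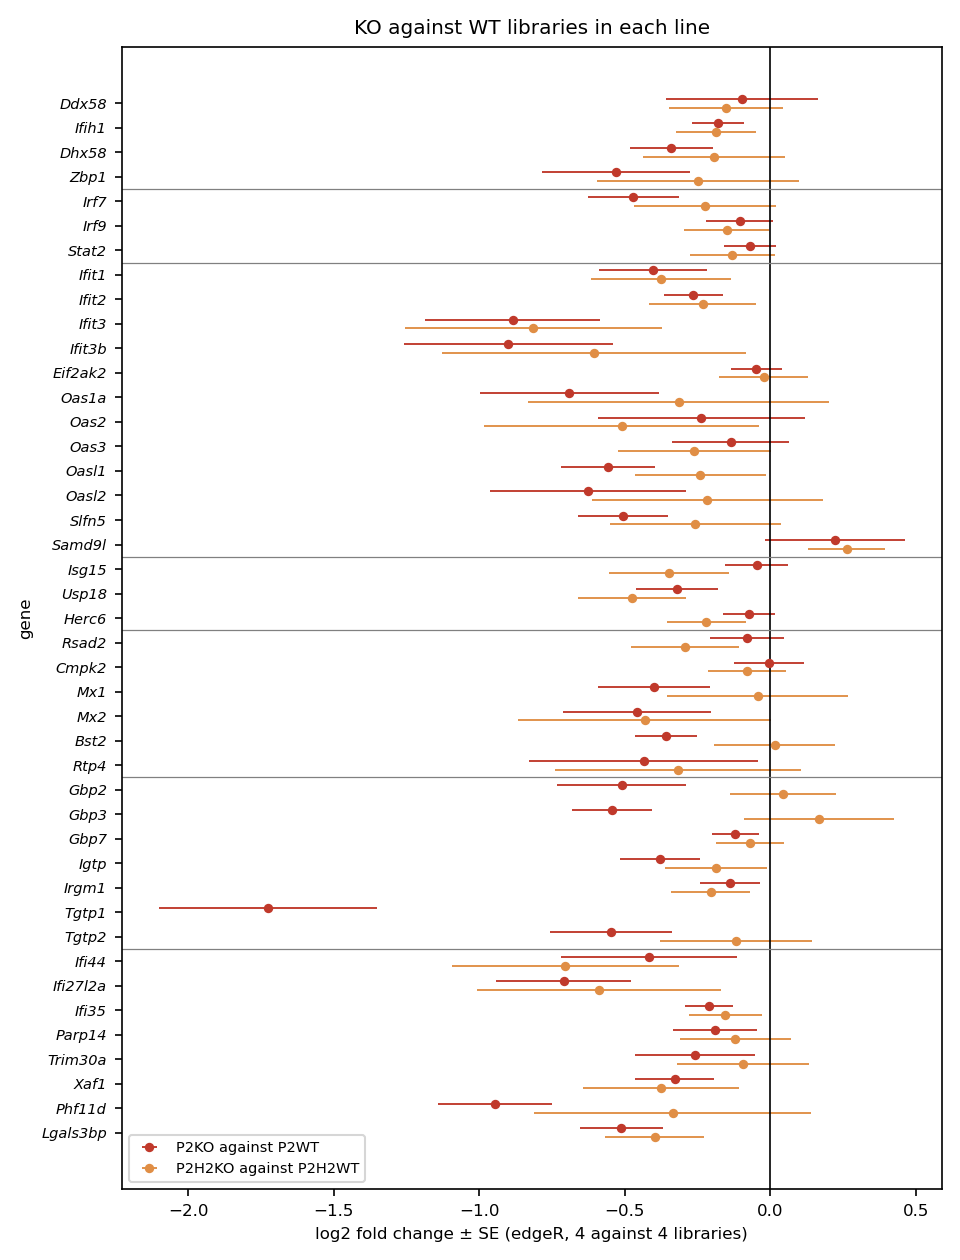
Log2 fold change of each member (x axis) with its standard error (bars), fitted by edgeR on 4 against 4 libraries, in the P2 line (red) and the P2H2 line (orange), by role. Points lie left of 0 for 42 of 43 members in the P2 line and 38 of 42 in the P2H2 line; Tgtp1 was not tested in the latter.

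The spread between libraries of 1 group was as wide as the difference between groups. Each member was centred on its own median over the 16 libraries, and the median of these log2 differences was taken in each library. It was highest in 2 control libraries, P2WT 10 (0.59) and P2H2WT 18 (0.51). P2WT 10 was the highest of its group for 35 of 43 members and P2H2WT 18 for 37 of 43. The lowest values were in P2H2KO 11 (-0.53), P2H2KO 12 (-0.33) and P2H2WT 13 (-0.32). P2H2KO 11 held the lowest level of all 16 libraries for 26 members, whereas P2H2WT 13, a control, was the lowest of its group for 35. The 4 P2KO values were -0.08, -0.11, 0.01 and -0.29, and P2WT 3, 4 and 7 were at 0.13, -0.05 and 0.27. The other libraries were P2H2KO 15 and 17 at 0.15 and 0.06, and P2H2WT 14 and 16 at 0.05 and 0.01. KO and WT libraries overlapped in both lines.

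Without P2WT 10, 37 of 43 members were lower in P2KO, the median was -0.18, and 11 members had an unadjusted p under 0.05. That count was 12 without P2KO 9, 24 without P2KO 6 and 26 without P2WT 4. Without P2H2WT 18, 25 of 42 members were lower in P2H2KO and the median was -0.04. Leaving out P2H2KO 11 instead gave 35 of 42 and -0.08, and P2H2KO 12 36 of 42 and -0.14, whereas the median was -0.34 without P2H2WT 13. The 2 members of the P2H2 line under an unadjusted 0.05 were 0 without P2H2KO 11, P2H2KO 12 or P2H2WT 14, and 5 without P2H2KO 15 or P2H2WT 13. Most of the median in the P2H2 line was therefore lost when either P2H2WT 18 or P2H2KO 11 was left out.

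**Figure D3:**
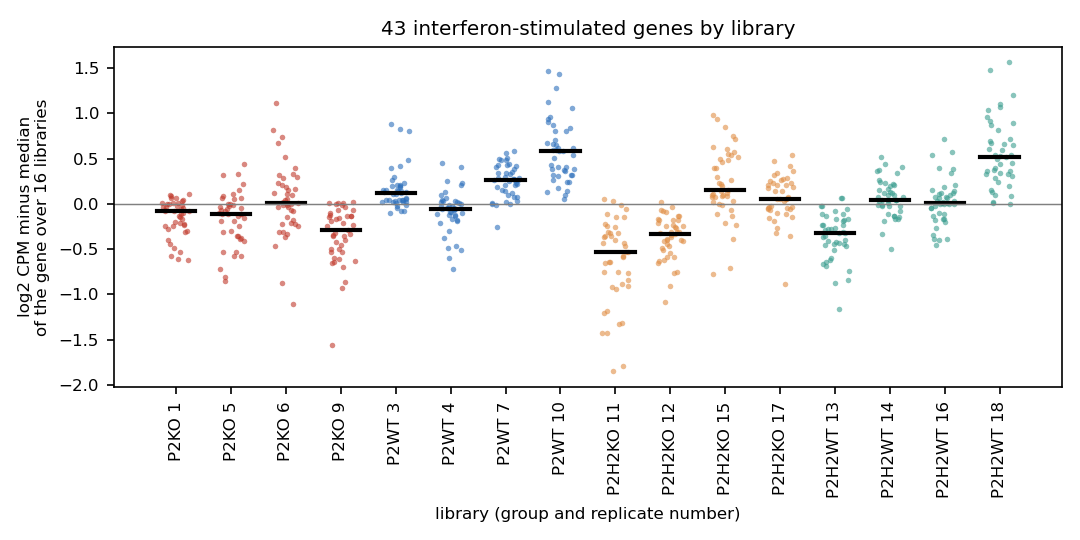
Log2 CPM of each of the 43 members minus its median over 16 libraries (y axis), in each library (x axis, coloured by group); points are members and black bars their median. P2WT 10 and P2H2WT 18 have the highest bars, and P2H2KO 11 the lowest.

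**Figure D4:**
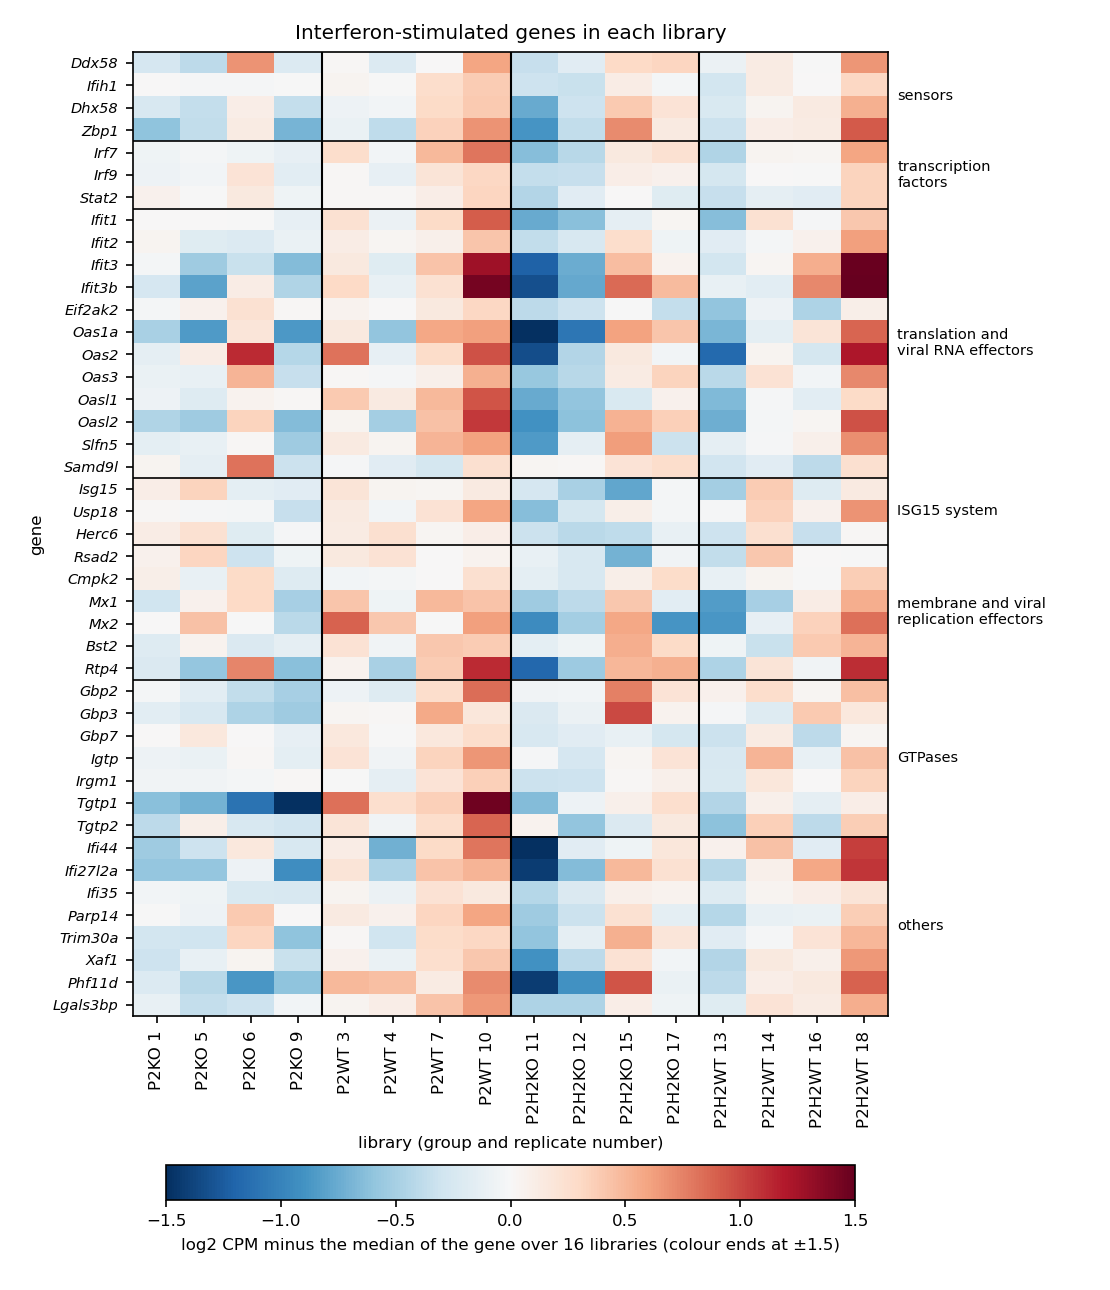
The same centred log2 CPM (colour, with red above and blue below the median of the gene) for each member (rows, by role) in each library (columns, by group). Most rows are red in P2WT 10 and P2H2WT 18, while Rsad2 and Herc6 are near their median there and reach their highest WT levels in P2WT 4 and P2H2WT 14.

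Values below are given by rising replicate number: P2KO 1, 5, 6 and 9, P2WT 3, 4, 7 and 10, P2H2KO 11, 12, 15 and 17, and P2H2WT 13, 14, 16 and 18. Gene coordinates are those of GENCODE M21 on build GRCm38.

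Of the 4 RNA and nucleic acid sensors, 4 had lower levels in P2KO (median log2 fold change -0.26) and 4 in P2H2KO (-0.19), with none called. Ddx58 (ENSMUSG00000040296, chromosome 4, 40203773 to 40239828, minus strand), which encodes the viral RNA sensor RIG-I, was at 37.9, 34.4, 71.9 and 38.97 CPM in P2KO and 45.6, 38.9, 45.1 and 67.9 CPM in P2WT. In the other line it was at 35.3, 39.9, 55.4 and 56.2 CPM in P2H2KO and 42.5, 49.1, 44.97 and 71.1 CPM in P2H2WT. P2KO 6 and P2WT 10 stood above the rest of their groups, and the groups overlapped in both lines. The log2 fold change of Ddx58 was -0.10 ± 0.26 (SE) in the P2 line (unadjusted p 0.719) and -0.15 ± 0.20 in the P2H2 line (unadjusted p 0.459). Ifih1 encodes the long-RNA sensor MDA5 and was at 51.7, 51.1, 51.3 and 51.6 CPM in P2KO and 53.3, 51.7, 62.2 and 67.4 CPM in P2WT. The 4 P2KO libraries lay within 1 CPM of each other, and the lowest P2WT library was level with the highest of them. Ifih1 was at 41.7, 41.1, 55.6 and 50.5 CPM in P2H2KO and 42.7, 56.5, 51.8 and 64.03 CPM in P2H2WT, and these groups overlapped. Ifih1 had a log2 fold change of -0.18 ± 0.09 (SE) in the P2 line, with an unadjusted p of 0.0748, and of -0.19 ± 0.14 in the P2H2 line, with 0.207. Dhx58, which encodes the related helicase LGP2, was at 22.4, 20.6, 28.2 and 20.6 CPM in P2KO and 24.98, 25.5, 32.2 and 34.5 CPM in P2WT. P2KO 6 lay above 2 of the P2WT libraries. Its levels in the other line were 15.6, 21.2, 34.7 and 30.4 CPM in P2H2KO and 22.4, 27.2, 28.99 and 38.1 CPM in P2H2WT, where P2H2KO 15 and 17 lay above 3 of the 4 controls. Fitted log2 fold changes of Dhx58 were -0.34 ± 0.14 (SE; unadjusted p 0.0416) and -0.19 ± 0.24 (unadjusted p 0.45) in the P2 and P2H2 lines. Zbp1, a sensor of Z-form nucleic acid that can trigger cell death, ranged from 9.13 to 31.8 CPM over the 16 libraries, with its highest value in P2H2WT 18 and its lowest in P2H2KO 11.

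All 3 transcription factors had lower levels in each KO group, at medians of -0.11 and -0.15 and none called. Irf7 (ENSMUSG00000025498, chromosome 7, 141262706 to 141266481, minus strand) encodes the factor that drives most interferon alpha genes, and itself is strongly induced by interferon. Irf7 was at 71.8, 73.6, 71.9 and 68.8 CPM in P2KO and 90.02, 72.96, 106 and 131 CPM in P2WT. P2WT 4 lay within the P2KO range and the other 3 P2WT libraries lay above it. In the P2H2 line it was at 48.1, 56.4, 83.05 and 88.2 CPM in P2H2KO and 54.8, 77.5, 76.7 and 113 CPM in P2H2WT, where P2H2WT 18 lay above every P2H2KO library and P2H2WT 13 below 3 of them. The log2 fold change of Irf7 was -0.47 ± 0.16 (SE) in the P2 line (unadjusted p 0.0141) and -0.22 ± 0.24 in the P2H2 line (unadjusted p 0.382). Its exons share 45 bases with those of Phrf1 on the other strand, and whether counting used strand is not given in the sources used here. Irf9, the DNA-binding part of the complex with STAT2, was at 104, 106, 126 and 98.3 CPM in P2KO and 111, 100.2, 124 and 136 CPM in P2WT. It was at 85.5, 85.9, 117 and 114 CPM in P2H2KO and 90.8, 109.6, 109 and 137 CPM in P2H2WT. The groups overlapped in both lines. Irf9 had a log2 fold change of -0.11 ± 0.12 (SE) in the P2 line, with an unadjusted p of 0.383, and of -0.15 ± 0.15 in the P2H2 line, with 0.331. Stat2 ranged between 32.5 and 55.4 CPM, with log2 fold changes of -0.07 ± 0.09 and -0.13 ± 0.15 (SE).

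The largest group, of 12 effectors that bind viral RNA or block translation, had medians of -0.45 in P2KO and -0.26 in P2H2KO. In each line 11 of 12 were lower, and Samd9l higher, with none called. Ifit3 (ENSMUSG00000074896, chromosome 19, 34583531 to 34588731, plus strand), a gene of the IFIT family, was at 6.55, 4.63, 5.34 and 4.26 CPM in P2KO and 7.44, 5.91, 9.01 and 16.2 CPM in P2WT. Only P2KO 1 lay above a control, P2WT 4. In the other line it was at 2.90, 3.99, 9.27 and 6.95 CPM in P2H2KO and 5.55, 6.85, 9.75 and 18.7 CPM in P2H2WT. P2H2WT 18 was the highest of all 16 libraries and P2H2KO 11 the lowest. The log2 fold change of Ifit3 was -0.89 ± 0.30 (SE) in the P2 line (unadjusted p 0.0165) and -0.81 ± 0.44 in the P2H2 line (unadjusted p 0.0976). Over both lines its mean log2 fold change was -0.85 ± 0.29 (unadjusted p 0.0103). Ifit3 and Ifit3b transcripts are 97.8% identical over 1700 bases, so their counts may have been split. With their counts added the values were -0.89 ± 0.30 and -0.76 ± 0.46. Ifit1 and Ifit2 had log2 fold changes of -0.40 ± 0.19 and -0.26 ± 0.10 in P2KO, and -0.38 ± 0.24 and -0.23 ± 0.18 in P2H2KO.

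The oligoadenylate synthetases make the messenger that activates RNase L when they meet double-stranded RNA. Oas3 (ENSMUSG00000032661, chromosome 5, 120753098 to 120777661, minus strand), their most abundant member here, was at 143, 143, 219.9 and 121 CPM in P2KO and 156, 152, 163 and 224 CPM in P2WT. P2KO 6 was close to P2WT 10, the highest of this line, and the groups overlapped. It was at 103, 116, 168 and 195 CPM in P2H2KO and 116, 179, 149 and 254 CPM in P2H2WT, where P2H2WT 18 was the highest of all libraries. Oas3 had a log2 fold change of -0.14 ± 0.20 (SE) in the P2 line, with an unadjusted p of 0.514, and of -0.26 ± 0.26 in the P2H2 line, with 0.344. Oasl1, an inactive relative that restrains the translation of Irf7 mRNA in mice, was at 10.4, 9.67, 11.5 and 11.2 CPM in P2KO and 14.5, 12.1, 15.5 and 21.2 CPM in P2WT. All 4 P2KO libraries lay below all 4 P2WT libraries. In the P2H2 line Oasl1 was at 6.53, 7.33, 9.41 and 11.6 CPM in P2H2KO and 6.98, 10.9, 9.87 and 13.5 CPM in P2H2WT, and the groups overlapped. The log2 fold change of Oasl1 was -0.56 ± 0.16 (SE) in the P2 line (unadjusted p 0.00736) and -0.24 ± 0.23 in the P2H2 line (unadjusted p 0.313). Oas1a, Oas2 and Oasl2 were lower in both lines, with log2 fold changes between -0.69 and -0.22 and standard errors of 0.31 to 0.52. Oas1a is 97.6% identical to Oas1g over 1861 bases. Eif2ak2, the kinase PKR that halts translation, had log2 fold changes of -0.05 ± 0.09 and -0.02 ± 0.15, and Slfn5, a Schlafen family gene, was at -0.51 ± 0.16 (unadjusted p 0.00999) and -0.26 ± 0.29.

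Samd9l (ENSMUSG00000047735, chromosome 6, 3372257 to 3399572, minus strand), a restriction factor that limits viral protein synthesis, was the only member with a higher level in both KO groups. It was at 161, 144, 277 and 126 CPM in P2KO and 155, 140.0, 132 and 186 CPM in P2WT. P2KO 6 stood far above the other 3 P2KO libraries, which lay within or next to the P2WT range. It was at 161, 159, 181 and 189 CPM in P2H2KO and 129, 139.7, 120.3 and 186 CPM in P2H2WT, where P2H2WT 18 lay between the 2 highest P2H2KO libraries and the other controls lay below all of them. Fitted log2 fold changes of Samd9l were 0.22 ± 0.24 (SE; unadjusted p 0.378) and 0.26 ± 0.13 (unadjusted p 0.0769) in the P2 and P2H2 lines. Without P2KO 6 the P2 value was -0.08.

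The ISG15 system attaches a ubiquitin-like protein to newly made proteins. Its 3 members had lower levels in P2KO (median -0.07) and P2H2KO (-0.35), with none called. Isg15 (ENSMUSG00000035692, chromosome 4, 156199424 to 156200818, minus strand), the modifier, was at 92.4, 109, 78.5 and 77.1 CPM in P2KO and 99.1, 89.1, 88.01 and 95.2 CPM in P2WT. In the other line it was at 72.6, 61.7, 50.5 and 85.2 CPM in P2H2KO and 60.9, 113, 75.6 and 95.1 CPM in P2H2WT. P2H2KO 15 was the lowest and P2H2WT 14 the highest of all libraries, and the groups overlapped in both lines. Isg15 had a log2 fold change of -0.05 ± 0.11 (SE) in the P2 line (unadjusted p 0.676) and -0.35 ± 0.21 in the P2H2 line (unadjusted p 0.126). Usp18, the protease that removes ISG15 and also dampens interferon receptor signalling, was at 21.3, 20.99, 20.7 and 16.7 CPM in P2KO and 23.3, 20.5, 24.6 and 31.8 CPM in P2WT. P2WT 4 lay below 3 of the P2KO libraries, and the other controls above all 4. It was at 13.6, 17.6, 22.5 and 20.7 CPM in P2H2KO and 20.9, 26.8, 22.2 and 33.8 CPM in P2H2WT, with P2H2KO 15 above 2 of the controls. Usp18 had a log2 fold change of -0.32 ± 0.14 (SE) in the P2 line, with an unadjusted p of 0.0477, and of -0.48 ± 0.19 in the P2H2 line, with 0.0298. The mean over both lines was -0.40 ± 0.13 (unadjusted p 0.00555, adjusted p 0.61). Herc6, the mouse ligase for ISG15, was at 25.9, 28.1, 21.3 and 23.8 CPM in P2KO and 26.3, 28.4, 24.6 and 25.8 CPM in P2WT. It was at 19.3, 18.3, 18.5 and 22.3 CPM in P2H2KO and 19.5, 28.4, 18.96 and 24.4 CPM in P2H2WT. P2WT 4 and P2H2WT 14 were the highest libraries of Herc6, in contrast to the set as a whole. Fitted log2 fold changes of Herc6 were -0.07 ± 0.09 (SE; unadjusted p 0.435) and -0.22 ± 0.14 (unadjusted p 0.139) in the P2 and P2H2 lines.

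Of the 6 effectors that act on membranes or on viral replication, 6 were lower in P2KO (median -0.38) and 5 in P2H2KO (-0.19), with none called. Rsad2 (ENSMUSG00000020641, chromosome 12, 26442746 to 26456452, minus strand), which encodes viperin, an enzyme that makes a chain-terminating nucleotide, was at 556, 666, 429 and 511 CPM in P2KO and 591, 618, 536 and 555 CPM in P2WT. It was at 495, 452, 326 and 512 CPM in P2H2KO and 415, 709, 536 and 531 CPM in P2H2WT in the other line. P2H2KO 15 was lowest and P2H2WT 14 highest, as for Isg15, and the groups overlapped in both lines. Rsad2 had a log2 fold change of -0.08 ± 0.13 (SE) in the P2 line (unadjusted p 0.543) and -0.29 ± 0.19 in the P2H2 line (unadjusted p 0.147). Cmpk2, its neighbour on chromosome 12 on the opposite strand and a kinase for nucleotide precursors, had log2 fold changes of -0.004 ± 0.12 and -0.08 ± 0.13. Bst2, or tetherin, which holds budding virus particles at the cell surface, was at 39.96, 47.5, 39.4 and 41.7 CPM in P2KO and 53.2, 44.2, 60.7 and 59.4 CPM in P2WT. P2KO 5 lay above P2WT 4, and the other controls lay above all P2KO libraries. It was at 41.5, 43.7, 66.99 and 55.7 CPM in P2H2KO and 43.98, 36.3, 60.1 and 65.5 CPM in P2H2WT, with P2H2KO 15 the highest and P2H2WT 14 the lowest of all libraries. Bst2 had a log2 fold change of -0.36 ± 0.11 (SE) in the P2 line, with an unadjusted p of 0.00858, and of 0.02 ± 0.21 in the P2H2 line, with 0.943.

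Mx1 and Mx2 belong to the dynamin-like GTPases, a family with antiviral members. Counts do not show whether C57BL/6 mice make a working protein from either gene. Mx2, annotated as a polymorphic pseudogene in GENCODE M21, was at 0.920, 1.24, 0.909 and 0.691 CPM in P2KO and 1.69, 1.21, 0.909 and 1.41 CPM in P2WT. It was at 0.476, 0.645, 1.36 and 0.496 CPM in P2H2KO and 0.501, 0.837, 1.16 and 1.62 CPM in P2H2WT. Groups overlapped in both lines, and the lowest library held 11 counts. Fitted log2 fold changes of Mx2 were -0.46 ± 0.25 (SE; unadjusted p 0.103) and -0.43 ± 0.44 (unadjusted p 0.347) in the P2 and P2H2 lines. Mx1 and Mx2 share 95.3% identity over 843 bases, so reads may have been split between them. Mx1 averaged 4.93 ± 1.20 CPM (mean ± SD of 4) in P2KO, 6.55 ± 1.06 in P2WT, 4.76 ± 1.47 in P2H2KO and 4.93 ± 2.09 in P2H2WT. Rtp4, a chaperone of surface receptors that is induced by interferon, ranged from 6.06 to 29.9 CPM and was highest in P2WT 10.

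The 7 interferon-inducible GTPases attack the vacuoles of intracellular microbes. In P2KO, 7 of 7 were lower (median -0.51), 5 of them at an unadjusted p under 0.05. In P2H2KO, 4 of 6 tested were lower (median -0.09), none of them at that level. None was called in either line. Igtp (ENSMUSG00000078853, chromosome 11, 58199556 to 58207591, plus strand), a regulator of this family, was at 21.2, 20.8, 22.6 and 20.2 CPM in P2KO and 25.8, 21.6, 28.3 and 35.4 CPM in P2WT. P2KO 6 lay above P2WT 4, and the other controls lay above all 4 P2KO libraries. It was at 22.2, 18.7, 22.9 and 25.8 CPM in P2H2KO and 19.00, 31.9, 20.7 and 30.4 CPM in P2H2WT, and these groups overlapped. Igtp had a log2 fold change of -0.38 ± 0.14 (SE) in the P2 line (unadjusted p 0.0223) and -0.19 ± 0.18 in the P2H2 line (unadjusted p 0.318). Irgm1, another regulator, was at 67.3, 67.3, 68.6 and 70.7 CPM in P2KO and 69.5, 63.6, 80.7 and 89.9 CPM in P2WT. It was at 56.1, 56.6, 70.8 and 74.01 CPM in P2H2KO and 59.5, 78.7, 70.5 and 88.3 CPM in P2H2WT. The groups overlapped in both lines. Irgm1 had a log2 fold change of -0.14 ± 0.10 (SE) in the P2 line, with an unadjusted p of 0.216, and of -0.21 ± 0.14 in the P2H2 line, with 0.162.

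Tgtp1 (ENSMUSG00000078922, chromosome 11, 48985327 to 48994172, minus strand) held 3 to 26 counts per library and was at 0.221, 0.207, 0.158 and 0.115 CPM in P2KO and 0.601, 0.404, 0.435 and 0.937 CPM in P2WT. All P2KO libraries lay below all P2WT libraries. It was at 0.216, 0.322, 0.359 and 0.406 CPM in P2H2KO and 0.251, 0.359, 0.310 and 0.364 CPM in P2H2WT, where the test left it out. Its log2 fold change in P2KO was -1.73 ± 0.37 (unadjusted p 0.00122), the lowest of any member. Only its P2WT levels carried Tgtp1 past the count filter. Its p values in every comparison that holds P2WT therefore depend on that group being high. Tgtp1 is 99.8% identical to Tgtp2 over 2811 bases, so the split of reads between them is uncertain. With their counts added the log2 fold change was -0.63 ± 0.21 (unadjusted p 0.0154) in the P2 line and -0.11 ± 0.25 in the P2H2 line. Gbp3, a guanylate-binding protein, was at 17.7, 16.7, 14.3 and 13.7 CPM in P2KO and 20.2, 20.1, 29.2 and 22.2 CPM in P2WT. Every P2KO library lay below every control. It was at 17.01, 18.6, 39.2 and 20.5 CPM in P2H2KO and 19.5, 17.3, 26.04 and 22.1 CPM in P2H2WT, where P2H2KO 15 stood far above the other 3. Fitted log2 fold changes of Gbp3 were -0.54 ± 0.14 (SE; unadjusted p 0.00315) and 0.17 ± 0.26 (unadjusted p 0.531) in the P2 and P2H2 lines. Without P2H2KO 15 the P2H2 value was -0.18. Gbp2 and Gbp7 had log2 fold changes of -0.51 ± 0.22 and -0.12 ± 0.08 in P2KO and 0.04 ± 0.18 and -0.07 ± 0.12 in P2H2KO.

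Of the 8 remaining members, 8 had lower levels in P2KO (median -0.37) and in P2H2KO (-0.36), with none called by edgeR. Lgals3bp (ENSMUSG00000033880, chromosome 11, 118392751 to 118402092, minus strand), a secreted glycoprotein that binds galectins, was at 79.2, 67.1, 69.5 and 83.6 CPM in P2KO and 88.1, 91.9, 116 and 134 CPM in P2WT. All P2KO libraries lay below all P2WT libraries. It was at 62.2, 62.3, 91.6 and 82.4 CPM in P2H2KO and 75.8, 99.1, 93.5 and 125 CPM in P2H2WT, where P2H2KO 15 and 17 lay above P2H2WT 13. Lgals3bp had a log2 fold change of -0.51 ± 0.14 (SE) in the P2 line (unadjusted p 0.00576) and -0.40 ± 0.17 in the P2H2 line (unadjusted p 0.044). Over both lines its value was -0.46 ± 0.12 (unadjusted p 0.00161, adjusted p 0.315), the smallest p of any member there. Ifi27l2a, a small membrane protein, was at 28.04, 28.04, 39.6 and 21.96 CPM in P2KO and 47.9, 30.4, 56.1 and 59.6 CPM in P2WT. P2KO 6 lay above P2WT 4, and the other 3 controls above all P2KO libraries. It was at 15.6, 26.6, 58.5 and 49.1 CPM in P2H2KO and 31.4, 44.2, 62.5 and 87.7 CPM in P2H2WT, where P2H2WT 18 was the highest and P2H2KO 11 the lowest of all libraries. Ifi27l2a had a log2 fold change of -0.71 ± 0.23 (SE) in the P2 line, with an unadjusted p of 0.0134, and of -0.59 ± 0.42 in the P2H2 line, with 0.194. Phf11d, a PHD finger gene, was at 1.51, 1.31, 0.949 and 1.15 CPM in P2KO and 2.44, 2.39, 1.90 and 2.85 CPM in P2WT. Its groups did not overlap in this line. It was at 0.649, 0.927, 3.34 and 1.62 CPM in P2H2KO and 1.32, 1.87, 1.93 and 3.23 CPM in P2H2WT, where P2H2KO 15 was the highest and P2H2KO 11 the lowest of all libraries. Phf11d had a log2 fold change of -0.95 ± 0.20 (SE) in the P2 line, with an unadjusted p of 0.000915, and of -0.34 ± 0.48 in the P2H2 line, with 0.499. Phf11d is 97.4% identical to Phf11a over 659 bases. Ifi35, Ifi44, Parp14, Trim30a and Xaf1 had log2 fold changes of -0.42 to -0.19 in P2KO and of -0.70 to -0.09 in P2H2KO.

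**Figure D5:**
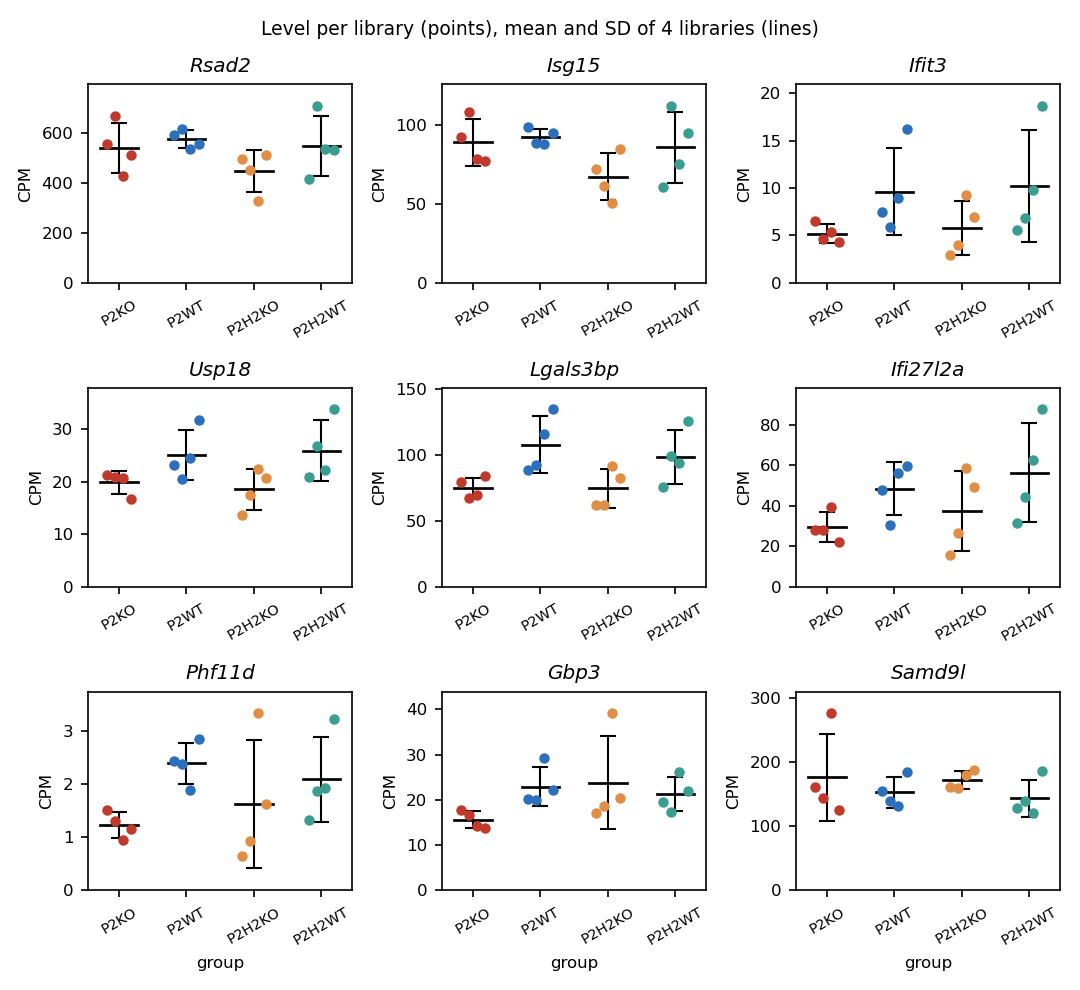
CPM (y axis, from 0) of 9 members in each library (points) of the 4 groups (x axis), with the mean and SD of 4 libraries (black lines). P2KO and P2WT points do not overlap for Lgals3bp, Phf11d and Gbp3, and 1 high library sets apart P2KO for Samd9l and P2H2KO for Gbp3.

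The contrast of the effects asked whether the members differed from control by other amounts in the 2 lines. The labels name floxed PHD2 alone for P2KO, and floxed PHD2 and HIF2α for P2H2KO. No gene was called among 14080 tested by edgeR (0.00%) or by DESeq2, and 0 of 43 members were. At an unadjusted p under 0.05, 2 of 43 members had a more negative effect in the P2 line, with 0.717% of all genes, and 0 a more positive one. These were Tgtp1 (-1.77 ± 0.46, unadjusted p 0.00157) and Gbp3 (-0.72 ± 0.32, unadjusted p 0.0382). Tgtp1 was in this test only because of its high P2WT levels. With the Tgtp pair added its value became -0.53 ± 0.34 (unadjusted p 0.142). The median difference over the members was -0.08, with 30 members below 0, beside 49.6% of all genes. It was 0.03 with 19 members below 0 without P2WT 10, 0.08 with 14 without P2H2KO 15 and 0.03 with 20 without P2H2WT 13, whereas it was -0.30 with 40 without P2H2WT 18. The median standard error of a member's difference was 0.32, so a difference of the size of the median effect in either line was not detectable for a typical member.

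Averaged over both lines, 42 of 43 members were lower, with a median of -0.27 beside 0.0029 over all genes, of which 48.1% were lower. EdgeR and DESeq2 called 0 of 43 members, and edgeR called 24 of 14080 genes in all (0.170%). At an unadjusted p under 0.05, 16 of 43 were lower and 0 higher, with 1.83% of all genes lower at that level. Lgals3bp, Tgtp1, Usp18, Ifit3 and Oasl1 had the smallest values, with adjusted p of 0.315, 0.35, 0.61, 0.818 and 0.957. The median was -0.21 without P2WT 10 and -0.19 without P2H2WT 18, with 6 members under the unadjusted 0.05 level in each case. That count was also low without P2KO 5 (10), P2KO 9 (6), P2H2KO 11 (7) and P2H2KO 12 (5). It was 22 without P2H2KO 15, where the median was -0.35, 23 without P2H2WT 13 (median -0.33) and 19 without P2H2KO 17.

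The controls of the 2 lines were set against each other as a gauge of the spread between lines. In P2WT 51.7% of all genes were lower than in P2H2WT. There 33 of 43 members were higher, with a median log2 difference of 0.10. None was called by edgeR or DESeq2, and edgeR called 32 of 14080 genes in all (0.227%). At an unadjusted p under 0.05 no member was lower, with 3.10% of all genes lower. At that level 4 of 43 members (9.3%) were higher, near the 6.94% of all genes that were: Tgtp1 (0.90 ± 0.30), Oasl1 (0.62 ± 0.21), Eif2ak2 (0.37 ± 0.13) and Gbp7 (0.27 ± 0.10). The members lower in P2WT, 10 in all, were 20 without P2WT 10, 21 without P2H2WT 13, 3 without P2WT 4 and 0 without P2H2WT 18. In the fits without P2WT 10 and without P2H2WT 18 the median was 0.0023 and 0.24, and 1 and 9 members had an unadjusted p under 0.05. Without P2H2WT 13 the median was 0.0047, with 2 such members, and without P2H2WT 16 it was 0.064, also with 2.

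The genes upstream of the members were taken from a list of 37 interferon genes, receptors, kinases, sensors and adaptors. Of 36 in the tables, 29 had enough counts to be tested. None was called by edgeR in either line. In P2KO 19 of 29 were lower (3 at an unadjusted p under 0.05) with a median of -0.04, and in P2H2KO 8 of 29 (1 at that level) with a median of 0.02. The receptor chain Ifnar1 averaged 88.3 ± 9.58 CPM (mean ± SD of 4) in P2KO and 89.1 ± 3.51 in P2WT, and at 87.6 ± 8.51 in P2H2KO and 86.7 ± 9.57 in P2H2WT. The kinase Tyk2 had log2 fold changes of -0.23 ± 0.09 (SE; unadjusted p 0.0406) and 0.05 ± 0.15. Mavs, the adaptor below RIG-I and MDA5, was at -0.20 ± 0.06 in P2H2KO (unadjusted p 0.00785) and 0.07 ± 0.08 in P2KO. Ifnb1, Ifna2, Ifna4, Ifnl2, Ifnl3 and Ifnk had 0 counts in all 16 libraries, and Ifng had at most 0.638 CPM.

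A further list held 87 interferon-stimulated genes that are not members, of which 83 were tested and 0 called by edgeR in either line. Their levels were lower for 72 of 83 in P2KO, with a median of -0.20 and 18 at an unadjusted p under 0.05, and for 63 of 83 in P2H2KO, with a median of -0.09 and 4.

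Levels of markers of other cell types also differed between the same groups, without passing the test. In bulk RNA, fewer cells of a type and less RNA per cell cannot be told apart. All 11 macrophage markers had counts in every library and were lower for 10 of 11 in P2KO (median log2 fold change -0.29) and for 11 of 11 in P2H2KO (-0.44, 10 at an unadjusted p under 0.05), with none called. Their summed level was 1120.4 to 1574 CPM in P2KO, 1408 to 1660.3 in P2WT, 912 to 1270.0 in P2H2KO and 1194 to 1555 in P2H2WT. All 8 monocyte markers were lower in P2KO (median -0.26, 3 at an unadjusted p under 0.05) and 1 of 8 in P2H2KO (0.05, 0 at that level). They summed to 2213 to 3937 CPM in P2KO, 3509 to 4843 in P2WT, 3385 to 6937 in P2H2KO and 2877 to 6100.1 in P2H2WT. The 13 neutrophil markers were lower for 8 of 13 in P2KO (median -0.008) and for 0 of 13 in P2H2KO (0.19). In P2H2KO 1 of these markers was higher at an unadjusted p under 0.05, beside 218 of 13435 genes. The 13 neutrophil markers had none at that level in P2KO. They summed to 33039.5 to 77461 CPM in P2KO and 41832 to 65277 in P2WT, and to 45857 to 86493 in P2H2KO and 47906 to 73639 in P2H2WT. The 6 erythroid markers were higher for 6 of 6 in P2KO (median 0.10) and lower for 6 of 6 in P2H2KO (-0.18). They summed to 16435 to 29771, 20707 to 28608, 16753 to 31887 and 24049 to 34099.9 CPM in the same order. T and NK cell markers were lower for 7 of 8 in P2KO (median -0.21, 2 at an unadjusted p under 0.05) and 5 of 8 in P2H2KO (-0.06). B cell markers were lower for 1 of 6 in P2KO (median 0.04, 0 at an unadjusted p under 0.05) and 6 of 6 in P2H2KO (-0.36). Endothelial markers were lower for 1 of 6 in P2KO (median 0.37, 0 at an unadjusted p under 0.05) and 1 of 6 in P2H2KO (0.48). Neutrophil progenitor markers were lower for 5 of 5 in P2KO (median -0.09, 0 at an unadjusted p under 0.05) and 0 of 5 in P2H2KO (0.19). Plasmacytoid dendritic cell markers were lower for 6 of 7 in P2KO (median -0.02, 0 at an unadjusted p under 0.05) and 0 of 7 in P2H2KO (0.17). In P2H2KO 1 of them was higher at that level. Between the controls, all 6 endothelial markers were higher in P2WT than in P2H2WT (median 1.28, 5 at an unadjusted p under 0.05), with sums of 69.04 to 86.2 and 54.98 to 59.6 CPM. No marker of these 9 lists was at 0 in any library, and none was called. Apart from the relations that follow, their part in the levels of the members was not tested.

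Each member was related to the summed level of the neutrophil, monocyte, macrophage and erythroid lists over the 16 libraries on log2 scales, which made 172 relations, a step chosen after the values were seen. Both correlations passed a Benjamini-Hochberg adjusted permutation p of 0.05 in 10 relations. Libraries were shuffled across lines and groups, and within a line across KO and WT. These permutation p values therefore also take in differences between groups. Ddx58, Cmpk2 and Samd9l were higher with the neutrophil markers, Bst2, Gbp3 and Trim30a with the monocyte markers, and Herc6 with the macrophage markers, whereas Parp14, Trim30a and Mx1 were lower where the erythroid markers were higher. Cmpk2 with the neutrophil markers gave r = 0.80 (permutation p 0.00032, adjusted 0.0138) and rho = 0.70 (permutation p 0.00358, adjusted 0.0296). Its r was 0.71 without the 2 libraries farthest from the median of the marker sum (P2KO 6 and P2H2KO 17), 0.97 within the P2 line (exact permutation p 0.000174) and 0.84 within the P2H2 line (exact permutation p 0.0107). Samd9l with the same markers gave r = 0.75 (permutation p 0.00058, adjusted 0.0166) and rho = 0.70 (permutation p 0.00332, adjusted 0.0296), and its r was 0.69 without the 2 libraries farthest from the median of the marker sum (P2KO 6 and P2H2KO 17), 0.92 within the P2 line (exact permutation p 0.00119) and 0.75 within the P2H2 line (exact permutation p 0.0359). Gbp3 with the monocyte markers gave r = 0.84 (permutation p 5e-05, adjusted 0.0086) and rho = 0.80 (permutation p 0.00033, adjusted 0.0142). Its r was 0.70 without the 2 libraries farthest from the median of the marker sum (P2KO 9 and P2H2KO 15), 0.74 within the P2 line (exact permutation p 0.0456) and 0.90 within the P2H2 line (exact permutation p 0.000149). Parp14 with the erythroid markers gave r = -0.72 (permutation p 0.0015, adjusted 0.0302) and rho = -0.79 (permutation p 0.00042, adjusted 0.0144). Its r was -0.75 without the 2 libraries farthest from the median of the marker sum (P2KO 6 and P2H2KO 15), -0.78 within the P2 line (exact permutation p 0.0176) and -0.68 within the P2H2 line (exact permutation p 0.057). For the other 6, r over all 16 libraries, without the 2 farthest, within the P2 line and within the P2H2 line was as follows. For Ddx58 with the neutrophil markers these were 0.81, 0.78, 0.92 and 0.74. For Bst2 with the monocyte markers these were 0.76, 0.75, 0.51 and 0.94. For Trim30a with the monocyte markers these were 0.76, 0.61, 0.80 and 0.75. For Herc6 with the macrophage markers these were 0.71, 0.55, 0.26 and 0.77. For Trim30a with the erythroid markers these were -0.71, -0.64, -0.83 and -0.77. For Mx1 with the erythroid markers these were -0.71, -0.76, -0.58 and -0.76. Over all 43 members the median r was 0.33 with neutrophil, 0.37 with monocyte, 0.29 with macrophage and -0.45 with erythroid markers. CPM values share a total, so neither the members nor the marker sums are independent of the other transcripts of a library.

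By sequence, 16 of the 43 members had a near copy (at least 95% identity over 200 bases or more of transcript), and exons of 15 overlapped those of another gene. Most of these partners had few counts. Besides the pairs given above, Igtp shares 162 exon bases with Irgm2 and Irf9 123 with Rnf31, so that reads of these stretches cannot be assigned to 1 gene from the counts.

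Members with and without the ISRE letters had similar medians in each line, but less so averaged over both lines. They were not tested against each other. In P2KO the median log2 fold change was -0.36 for the 21 members with the letters and -0.33 for the 13 without, and in P2H2KO -0.19 for the 20 tested and -0.22 for the 13. Averaged over both lines the medians were -0.20 and -0.35. For the 9 members with no window the medians were -0.40 in P2KO, -0.32 in P2H2KO and -0.38 averaged over both lines. Isg15 and Rsad2, whose promoter letters are shown above, were among the members with the smallest P2KO values, and Ifit3, which also holds the letters, among those farthest from 0.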

How the data were processed

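The authors deposited 2 tables of raw counts, 1 per line, as whole numbers per Ensembl gene, per the file headers. HTSeq and the mm10 build are named by the submitters' processing notes, and the aligner and strand setting are not given in the sources used here. Per the labels, total RNA was used. Symbols, coordinates and exon lengths came from GENCODE M21 (GRCm38), promoters from RefSeq. The members, roles and gene lists were chosen with earlier results of these data known.

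Low counts were removed by filterByExpr in edgeR 4.0.16, scaled by TMM and tested with glmQLFit (robust) and glmQLFTest in R 4.3.3, with two-sided p values, a Benjamini-Hochberg adjustment over every tested gene and a threshold of 0.05. Each line was fitted on its 8 libraries. The difference, the mean of the effects and the controls were contrasts in 1 fit of 16. CPM and SE were computed here. Relations to marker sums were added after values were seen. Correlations used 100000 permutations, or all pairings within a line. Near copies had at least 95% identity over 200 bases (blastn 2.17.0). The fits were tested on simulated data. Alternatives were other scaling, filters, DESeq2 1.42.0, the title suffix, left-out libraries, a common fit, added copies and longer motif letters. Named members, with values per library, were those with an adjusted p under 0.05 and, in each role, the 2 highest per kilobase and the 2 with the smallest p in the mean of the effects.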

Additional observations from a re-analysis of the deposited data

Results flagged for a closer look

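In 10 of the 172 sets of 4 libraries (43 genes in 4 groups), 1 library stood apart from the other 3 by Dixon's criterion for 4 values. Chance alone sets apart a library in about 1 in 20 such sets, and 10 of 172 is near that rate. P2KO 6 was high for Ddx58 at 71.9 CPM, beside 38.97 in the next library, Oasl2 at 48.97 CPM, beside 28.6 in the next library, and Parp14 at 104.5 CPM, beside 79.9 in the next library. P2KO 9 was low for Ifit1 at 13.7 CPM, beside 14.9 in the next library, and Usp18 at 16.7 CPM, beside 20.7 in the next library. P2WT 10 was high for Ifit3b at 5.55 CPM, beside 2.52 in the next library, Oas3 at 224 CPM, beside 163 in the next library, and Cmpk2 at 192 CPM, beside 163 in the next library. P2WT 4 was low for Mx1 at 4.97 CPM, beside 6.95 in the next library. P2H2KO 15 was high for Gbp3 at 39.2 CPM, beside 20.5 in the next library. P2KO 6, P2WT 10, P2H2KO 17 and P2H2WT 18 had the highest summed neutrophil markers of their groups. In P2H2KO 17 and P2H2WT 18 no member stood apart. Of the members that stood apart in P2KO 6, Ddx58 was among those related to the neutrophil markers above, and Oasl2 and Parp14 were not. P2H2KO 15 had the highest summed monocyte markers. Whether marker levels bear on these values was not tested. No member differed between the lines at an adjusted p under 0.05, and none had all libraries on opposite sides of the controls in the 2 lines.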

How the results depend on the processing

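No paired analysis was possible because the groups share no replicate numbers. Members called by edgeR stayed at 0 in all comparisons under RLE and upper-quartile scaling, both filters, the m and f suffix of the titles as a covariate, a common fit, added copies and the fits without 1 library. DESeq2 called 1 member (Phf11d) in the P2 line, and over all genes 24 against 6, and 39 against 10 in the P2H2 line, 63 against 24 for the mean and 268 against 32 for P2WT against P2H2WT. The last count was 124 with the suffix, 9 without a filter, 0 with at least 10 counts in every library and 0 to 182 without 1 library. In the same fits without 1 library the counts were 4 to 6 in the P2 line, 6 to 9 in the P2H2 line and 15 to 30 for the mean, and the P2 line gave 10 in a fit of 16. The suffix was not balanced over the groups: the f libraries were P2KO 9, P2WT 7 and 10, P2H2KO 15 and 17, and P2H2WT 16. With the suffix, 42 of 43 members were lower in the P2 line (median -0.29) and 41 of 42 in the P2H2 line (-0.31). With it, 15 members were lower in the difference of effects (median 0.062) and 19 in P2WT against P2H2WT. The P2H2 values were then -0.11 for Bst2, -0.034 for Gbp2 and -0.014 for Gbp3. With CT required after the ISRE letters, 32.4% of member promoters held them, against 0.303% of all genes.

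Without 1 library each, members lower ranged from 25 to 41 in the P2H2 line, from 14 to 40 in the difference (median -0.30 to 0.077) and from 0 to 21 in P2WT against P2H2WT. In the P2 line they ranged from 37 to 42, with medians of -0.44 to -0.18, and the P2H2 medians ran from -0.34 to -0.042. The sign of single members turned in 47 of 2349 alternative values, pooled over all settings, and in 27 of 134 results at least once. These results covered each line and the mean for all members tested. The difference and P2WT against P2H2WT entered only for members with an unadjusted p under 0.05, so the share does not describe those comparisons. In the P2 line the log2 fold change ran from -0.40 to 0.10 for Ddx58, -0.11 to 0.010 for Stat2, -0.10 to 0.020 for Eif2ak2 and -0.35 to 0.015 for Oas3. It also ran from -0.080 to 0.35 for Samd9l, -0.16 to 0.015 for Isg15, -0.19 to 0.017 for Rsad2 and -0.10 to 0.070 for Cmpk2. In the P2H2 line it ran from -0.25 to 0.032 for Ddx58, -0.58 to 0.042 for Zbp1, -0.22 to 0.022 for Stat2, -0.12 to 0.098 for Eif2ak2, -0.69 to 0.019 for Oas1a, -0.78 to 0.065 for Oas2 and -0.46 to 0.17 for Oasl2. Further P2H2 ranges were -0.18 to 0.023 for Cmpk2, -0.27 to 0.23 for Mx1, -0.13 to 0.15 for Bst2, -0.55 to 0.074 for Rtp4 and -0.17 to 0.13 for Gbp2. The last were -0.18 to 0.30 for Gbp3, -0.15 to 0.020 for Gbp7, -0.28 to 0.027 for Tgtp2, -0.28 to 0.039 for Parp14 and -0.30 to 0.068 for Trim30a. The mean of both lines turned sign for Eif2ak2 (-0.093 to 0.021) and Cmpk2 (-0.10 to 0.0056). The cause was not tested. Counts under 30 limit Tgtp1, and those under 100 limit Phf11d.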
